A study of Mus musculus with 4 samples.

Results

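The 9 genes described here encode histone lysine demethylases, and were taken by their symbols, Kdm1a, Kdm1b, Kdm2b, Kdm3a, Kdm4a, Kdm4c, Kdm5a, Kdm5b and Kdm6b. All 9 were among the 20171 genes of the gene table, and 68 of the 68012 isoforms of the isoform table were assigned to them. The study sequenced full-length cDNA of single oocytes and blastomeres on the PacBio platform with the HIT-scISOseq method, in which each read carries a cell barcode and a UMI, a tag that marks 1 captured mRNA molecule. The embryos came from C57BL/6J females of 6 to 8 weeks mated with DBA/2NCrl males (the strain label reads DBA/2J x C57BL/6J), and nothing was knocked out or treated beyond the hormone injections. Unmated MII oocytes were taken at 20 hours after hCG (10 oocytes). Zygotes were taken at 22 to 24 hours (9 zygotes), early 2-cell (E2C) embryos at 30 to 32 hours (5 embryos, 10 cells) and late 2-cell (L2C) embryos at 46 to 48 hours (6 embryos, 11 cells). The later groups were 4-cell embryos at 54 to 56 hours (5 embryos, 17 cells), 8-cell embryos at 68 to 70 hours (4 embryos, 26 cells) and 16-cell embryos at 78 to 80 hours (4 embryos, 38 cells). These 43 oocytes, zygotes and embryos, named in the cells' column headers, were the replicates. The 22 32-cell blastomeres, 13 blastocyst cells and 5 E14 mouse embryonic stem cells (mESC) name no embryo, and their values are given as the median and range over cells without a test.

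Histone lysine demethylases remove methyl groups from lysines of histone tails by one of 2 chemistries. Kdm1a (LSD1) and Kdm1b (LSD2) are FAD-dependent amine oxidases that act on mono- and dimethylated lysine 4 of histone H3. The other genes encode Jumonji C (JmjC) proteins, dioxygenases that need iron and 2-oxoglutarate, some of which can also remove trimethylation. In the mouse, Kdm1b is needed in the growing oocyte for maternal DNA methylation imprints, and the broad H3K4me3 domains of the oocyte are lost at the 2-cell stage, when the embryonic genome is activated and the H3K4me3 demethylases Kdm5a and Kdm5b are known to act.

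The level of a gene is given in copies per 100,000 UMIs of a cell, averaged over the cells of an embryo. It is a share of the cell's UMIs, so a change in the total RNA of a cell is not seen. Gene UMIs per cell ran from 166731 to 255836 in oocytes and from 194072 to 389775 in zygotes, and their median was 91608.5 in E2C and 32466 in 4-cell blastomeres, where 1 UMI is worth about 3.08 copies. Single cells limit low genes, and intervals cover counting error only. The oocyte markers Gdf9, Bmp15, Zp3 and Oosp1 summed to between 1685 and 2250 copies in oocytes and to between 35.5 and 155 in L2C cells. Oosp1 and Gdf9 carried the sum in oocytes (medians 1153 and 662). The Zp3 median was 8.27 in oocytes and 21.7 in L2C cells. Bmp15 went from 42.5 in oocytes to 176 in E2C and 2.96 in L2C cells. They also summed to between 54.6 and 108 copies in the 5 mESC. The 4 late 2-cell markers (Zscan4c, Zscan4d, Tcstv3 and Usp17lb) had a median sum of 13.7 copies in E2C and 10.0 in L2C cells. Of these, Usp17lb had a UMI in 3 of 10 E2C and 9 of 11 L2C cells and Tcstv3 in 10 of 10 and 6 of 11. Of 5 cumulus cell markers, 2 were in the table, with at most 0.553 copies in any cell. Some libraries stood apart. L2C embryo 1 is a single cell of 17971 UMIs, in which 1 UMI is worth 5.56 copies, and 4-cell embryo 2 holds 2 cells, of 4985 and 20426 UMIs. The labels name no run for a cell. For oocytes and zygotes it was inferred from the number at the end of the cell's barcode in a supplementary list of the study, by which oocyte 6 was the only oocyte of the second sequencing run.

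**Figure D1:**
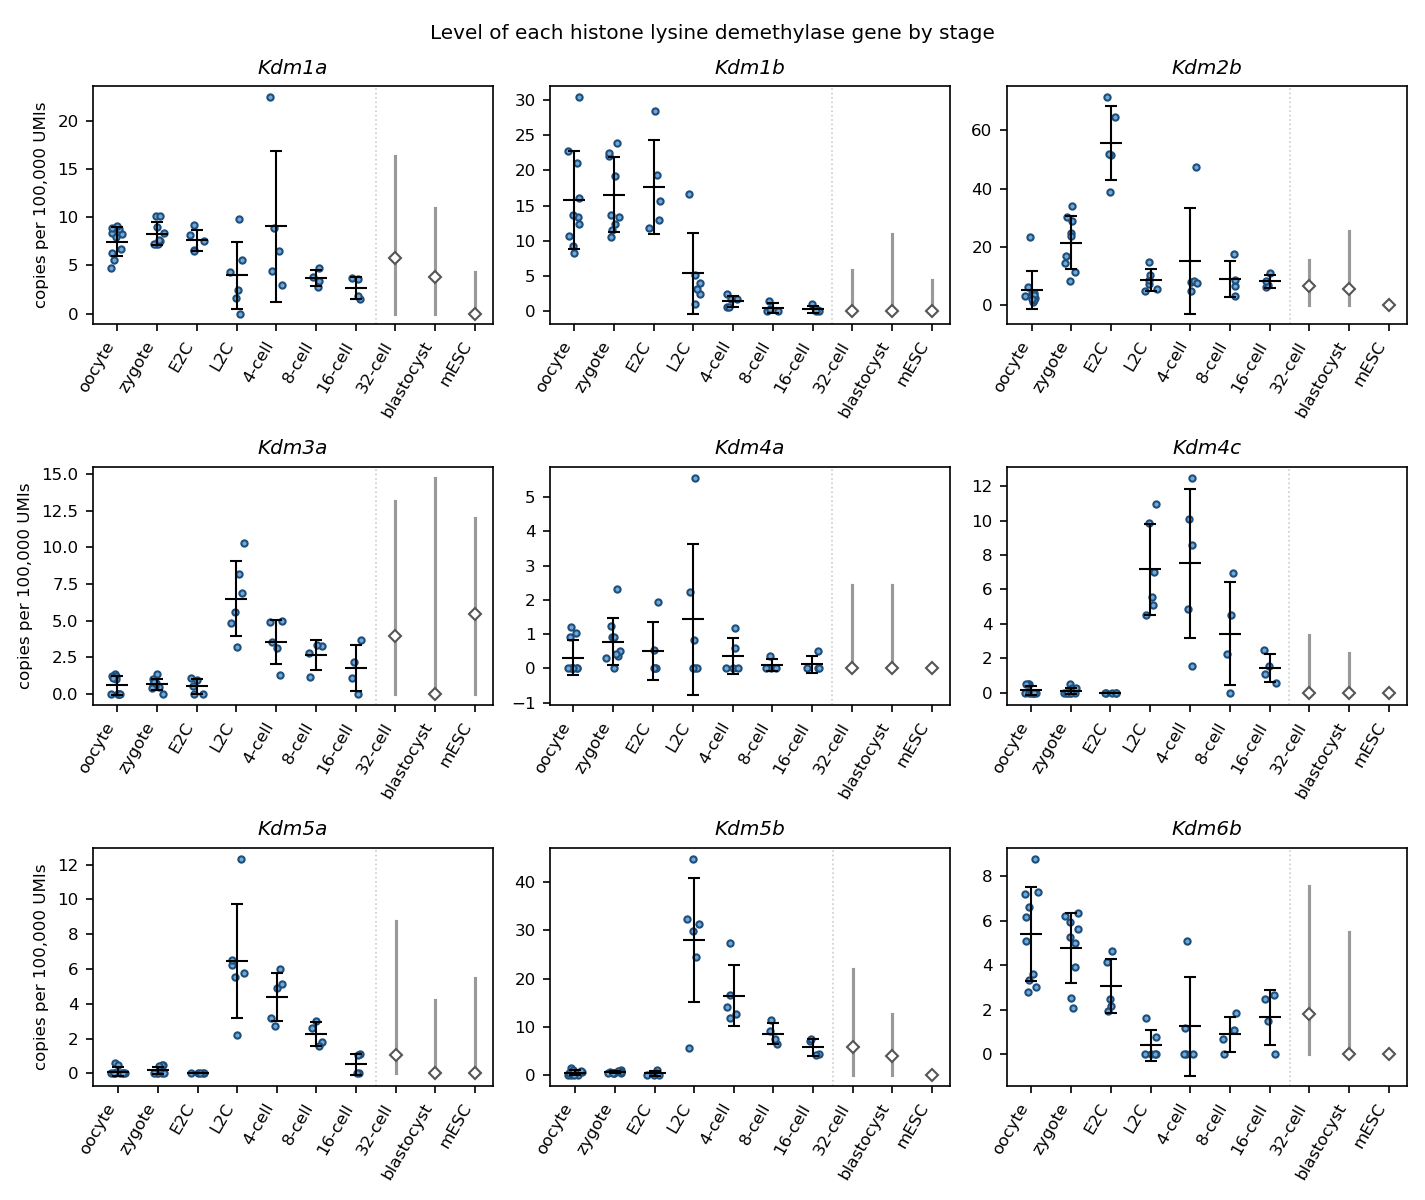
Level of each gene in copies per 100,000 UMIs (y axis, linear, a scale of its own in each panel) by stage (x axis). Points are oocytes, zygotes or embryos and bars their mean ± SD; to the right of the dotted line, diamonds are medians and lines ranges over single cells. Kdm2b climbed to a mean of 55.6 at E2C, Kdm1b and Kdm6b were lower from L2C on, and Kdm3a, Kdm4c, Kdm5a and Kdm5b rose at L2C.

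Adjacent stages were compared to ask when each transcript appears or is lost. Between E2C and L2C, the step at which the mouse embryonic genome is activated, 8 of the 9 genes changed: Kdm5b, Kdm4c, Kdm5a and Kdm3a rose, and Kdm2b, Kdm1b, Kdm6b and Kdm1a fell. The test was limma on log2(value + 1) of the 43 embryos, and calls needed an absolute log2 fold change above 1 together with an unadjusted p below 0.01. At this step 48.4% of the 11682 genes tested were called, 25.6% as higher and 22.8% as lower, so a call at this step was common. Genes were tested if at least 4 embryos had 1 copy or more. Kdm4c, Kdm5a and Kdm5b met this only through embryos from L2C on, so only a rise could be called for them. The median log2 fold change was 0.24 over the 9 genes and 0.03 over all genes, since 4 rose and 4 fell. Before this step only Kdm2b was called, at oocyte to zygote (background 3.24%, of which 2.92% higher and 0.325% lower) and again at zygote to E2C (background 7.27%, 4.52% higher and 2.75% lower). After it none of the 9 was called at L2C to 4-cell (background 6.69%, 2.41% higher and 4.28% lower), 4-cell to 8-cell (background 15%, 4.47% higher and 10.5% lower) or 8-cell to 16-cell (background 3.36%, 1.9% higher and 1.46% lower) by limma, where 2, 1 and 3 of the 9 had an unadjusted p under 0.05. DESeq2 also called 0 at each of these steps, and edgeR called 1, Kdm5b at L2C to 4-cell. From oocyte to 16-cell, a comparison that shares its samples with those above, 5 of the 9 were called (background 50.8%, 26.8% higher and 24% lower). At this comparison edgeR and DESeq2 also called Kdm3a and Kdm5a as higher.

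**Figure D2:**
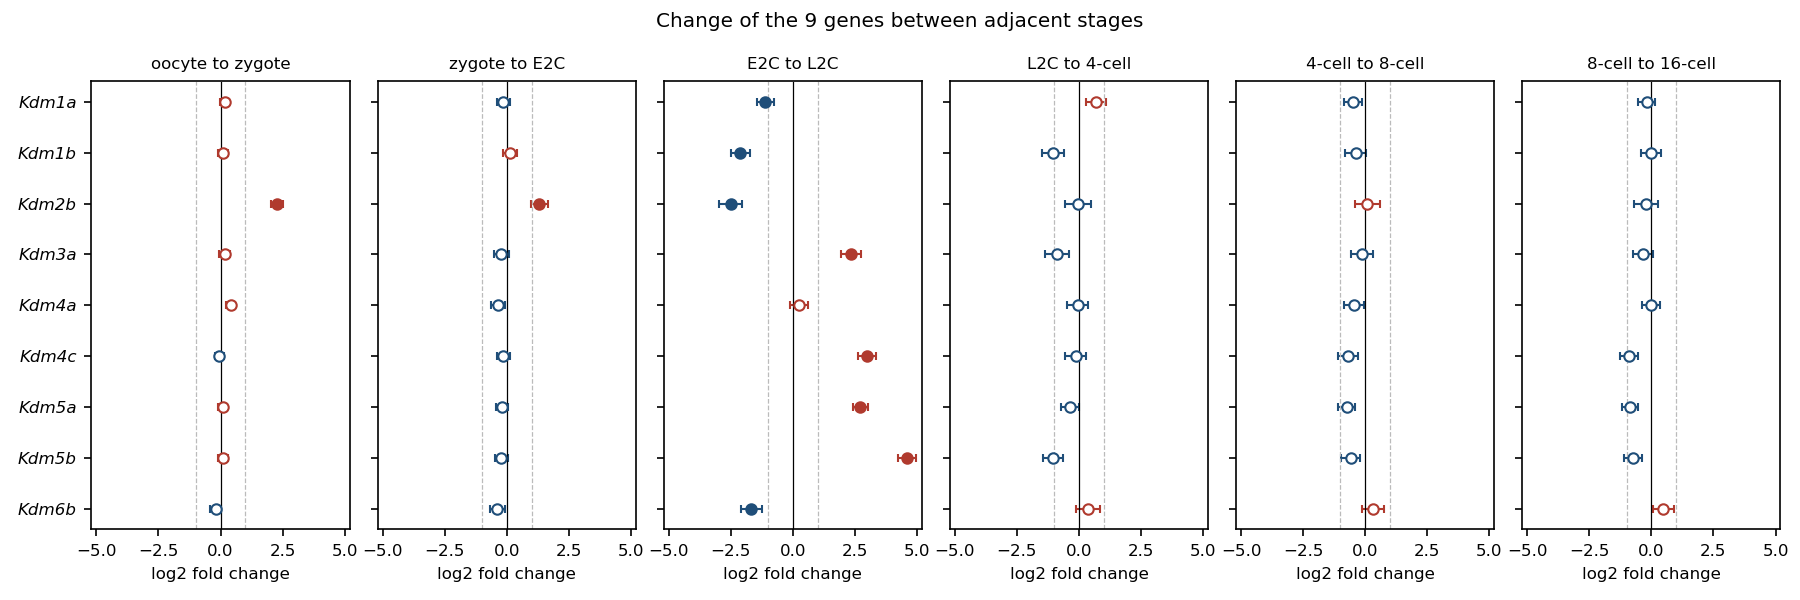
Log2 fold change of the later over the earlier stage (x axis, on the log2(value + 1) scale) for each gene (rows) at the 6 adjacent comparisons. Bars are standard errors of the limma fit, filled points passed the limits of a call and dashed lines mark a log2 fold change of 1 in either direction; the called genes are Kdm2b at the first 2 steps and 8 genes at E2C to L2C, of which Kdm5b moved by 4.59.

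Of the amine oxidases, Kdm1a (ENSMUSG00000036940.15, GRCm38 chr4:136550540-136602723, minus strand) was lower in L2C than in E2C embryos and lower in 16-cell embryos than in oocytes. Its level was 7.46 ± 1.53 copies in oocytes (SD, n = 10; lowest 4.69, median 8.07, highest 9.14), 8.27 ± 1.21 in zygotes (n = 9; lowest 7.18, median 7.62, highest 10.1), and in the 5 E2C embryos it was 6.64, 8.13, 7.53, 6.48 and 9.20. The 6 L2C embryos had 5.56, 2.48, 1.58, 0, 4.30 and 9.80 copies, so that the groups overlapped through the last of them. Kdm1a fell by 1.11 on the log2 scale between them (SE 0.35, limma adjusted p = 0.00569), a call lost without L2C embryo 3 (log2 fold change -0.90) or L2C embryo 4 (-0.78) and with a pseudocount of 5 (-0.56). Levels were 2.81 to 4.76 in the 4 8-cell embryos and 1.49 to 3.68 in the 4 16-cell embryos, all below every oocyte in the 16-cell embryos. The fall from oocyte to 16-cell was 1.09 on the log2 scale (SE 0.28, limma adjusted p = 5.87e-04), which missed the limit of 1 without 16-cell embryo 2 (-0.996) or 4 (-0.964) and with a pseudocount of 5 (-0.62). Of the 5 4-cell embryos, 4 had 2.91 to 8.93 copies, and the fifth, embryo 2, had 22.5 from 3 UMIs, for a mean of 9.05 ± 7.85 (n = 5) where the pooled level of the cells was 5.53. The difference from L2C to 4-cell was 0.67 on the log2 scale and not called, but it was called as higher without L2C embryo 6 (1.08).

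Kdm1b (ENSMUSG00000038080.17, chr13:47043499-47085279, plus strand) was a transcript of the oocyte, zygote and E2C embryo that was nearly gone by the 8-cell stage. It was at 15.8 ± 6.97 copies in oocytes (n = 10; lowest 8.28, median 13.5, highest 30.4) and 16.6 ± 5.30 in zygotes (n = 9; lowest 10.5, median 13.6, highest 23.9). The E2C embryos had 19.4, 28.4, 15.7, 11.8 and 13.0 copies, and these 3 groups overlapped. In L2C embryos 2 to 6 it was at 3.96, 0.99, 5.17, 2.43 and 3.22 copies, all below every E2C embryo, while L2C embryo 1 had 16.7 copies from 3 UMIs. The fall was 2.12 on the log2 scale (SE 0.39, limma adjusted p = 5.01e-06). The 4-cell embryos had 0.57 to 2.45 copies, a difference from L2C that was not called (log2 fold change -1.06) but was called as lower without L2C embryo 3 (-1.29). Of the later embryos, 2 of 4 8-cell and 2 of 4 16-cell embryos had none, and only 5 UMIs were counted in the 38 cells of the 16-cell embryos. From oocyte to 16-cell Kdm1b fell by 3.37 (SE 0.31, limma adjusted p = 9.26e-15), and the ratio of the pooled levels was 37.7 (95% exact interval 16.0 to 117).

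Kdm2b (ENSMUSG00000029475.17, chr5:122870665-122989823, minus strand) encodes a demethylase of lysine 36 of histone H3 that also binds unmethylated CpG islands and brings a variant Polycomb complex to them. It was the only member called before L2C, and it rose at both of the early steps before it fell. Oocytes had 5.19 ± 6.54 copies (n = 10; lowest 1.02, median 3.25, highest 23.3), with the highest in oocyte 6 and the others at 1.02 to 6.25. Zygotes had 21.5 ± 9.02 copies (n = 9; lowest 8.47, median 23.9, highest 34.1), and the groups overlapped only through oocyte 6. The rise was 2.27 on the log2 scale (SE 0.25, limma adjusted p = 1.97e-09). The levels of these 19 cells moved with the inferred sequencing run. In run 1, 5 oocytes had 2.57 to 6.25 and 4 zygotes 17.0 to 30.3 copies. In run 2, oocyte 6 had 23.3 and 2 zygotes 23.9 and 34.1, and in run 3, 4 oocytes had 1.02 to 3.41 and 3 zygotes 8.47 to 14.6. Zygotes were above oocytes within each run, and with the inferred run as a block the rise was 1.96 (SE 0.24, limma adjusted p = 7.64e-04). The part of the run in the level of oocyte 6 was not tested, since no other oocyte shares its run.

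**Figure D3:**
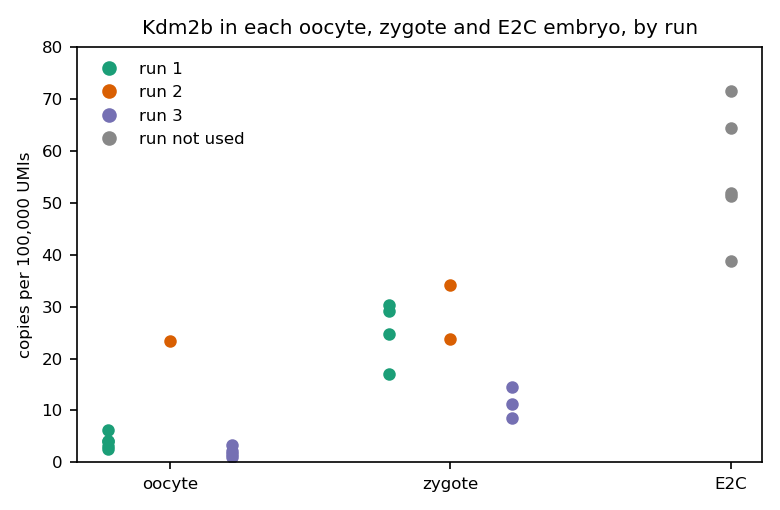
Kdm2b in copies per 100,000 UMIs (y axis, from 0) in each oocyte, zygote and E2C embryo (x axis), coloured by inferred sequencing run where it was used. Within runs 1 and 3 the oocytes sit at 1.02 to 6.25 and the zygotes at 8.47 to 30.3, the run 2 oocyte is at 23.3, and the E2C embryos are at 38.8 to 71.5.

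The 5 E2C embryos had 51.4, 71.5, 64.4, 38.8 and 51.8 copies of Kdm2b, all above every zygote, a further rise of 1.31 on the log2 scale (SE 0.34, limma adjusted p = 0.00496). The run was used for oocytes and zygotes only, so this step and all later ones were fitted without it, and the part of the run in them was not tested. The 6 L2C embryos, at 5.56, 15.0, 7.30, 8.82, 10.6 and 4.83, were all below every E2C embryo. The fall was 2.51 (SE 0.47, limma adjusted p = 6.05e-06), a ratio of means of 6.41. From L2C on Kdm2b kept a level that the tests did not separate between stages, at 8.67 ± 3.73 in L2C (n = 6), 9.04 ± 6.16 in 8-cell (n = 4) and 8.18 ± 2.07 in 16-cell embryos (n = 4). The 4-cell embryos had 4.82 to 8.35 copies except embryo 2, which had 47.5 from 7 UMIs. From oocyte to 16-cell it was not called, but without oocyte 6 it was (log2 fold change 1.07, limma adjusted p = 0.00330).

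Kdm5b and Kdm5a belong to the family that removes di- and trimethylation from lysine 4 of histone H3, a mark of active promoters. Kdm5b (ENSMUSG00000042207.17, chr1:134560171-134635285, plus strand) had the largest fitted fold change of the 9 genes at E2C to L2C on the log2(value + 1) scale. By edgeR, Kdm4c (6.44) and Kdm5a (6.25), both without a UMI in E2C, stood above Kdm5b (5.96), and a fitted fold change from a count of 0 depends on the prior count. Kdm5b was at 0.484 ± 0.502 copies in oocytes (n = 10; lowest 0, median 0.50, highest 1.39) and at 0.30 to 0.92 in the 9 zygotes, and the E2C embryos had 0, 0, 0.95, 0.48 and 0. The L2C embryos 2 to 6 had 44.9, 24.5, 32.3, 31.2 and 29.9 copies, and L2C embryo 1 had 5.56, a single UMI. All 6 were above every E2C embryo. The rise was 4.59 on the log2 scale (SE 0.35, limma adjusted p = 8.33e-17). The E2C cells held 3 Kdm5b UMIs and the L2C cells 192, a ratio of pooled levels of 90.6 with a 95% exact interval of 30.5 to 443. The levels then stepped down to 16.5 ± 6.37 in 4-cell (n = 5), 8.56 ± 2.20 in 8-cell (n = 4) and 5.73 ± 1.73 in 16-cell embryos (n = 4). Every 4-cell embryo was above every 8-cell embryo, but the main limma fit called no single step. edgeR called the fall at L2C to 4-cell (log2 fold change -1.10), as did limma with summed UMIs (-1.07) or the filter of 5 copies (-1.08). At L2C to 4-cell the fall was called without L2C embryo 1 (log2 fold change -1.15) or 4-cell embryo 2 (-1.10), and at 16-cell Kdm5b was still higher than in oocytes by 2.10 (SE 0.28, limma adjusted p = 2.07e-09; not called with a pseudocount of 5, at 0.88).

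Kdm5a (ENSMUSG00000030180.15, chr6:120364124-120444574, plus strand) was likewise nearly absent before L2C. Oocytes had 2 UMIs and zygotes 4 in all, and none of the 848348 UMIs of the E2C cells was from Kdm5a, which allows a level of up to 0.354 copies (3 UMIs over the group). The L2C embryos had 5.56, 6.24, 6.51, 12.3, 5.79 and 2.21 copies. Their pooled level was 6.17 copies (95% exact interval 4.35 to 8.51), 17.5 times the E2C limit of 0.354. This ratio leaves out the counting error of the L2C UMIs, so it is not a lower bound. The fitted rise was 2.72 on the log2 scale (SE 0.32, limma adjusted p = 9.36e-11). Later it was at 4.38 ± 1.38 in 4-cell (n = 5), 2.26 ± 0.677 in 8-cell (n = 4) and 0.53 ± 0.613 in 16-cell embryos (n = 4), where 2 embryos had none. Every 8-cell embryo, at 1.57 to 3.03 copies, was above every 16-cell embryo, at 0 to 1.09. That last difference was not called, though it was without 16-cell embryo 1 (log2 fold change -1.33) or 2 (-1.14). From oocyte to 16-cell the difference was 0.64 and not called by limma, while edgeR (2.89), DESeq2 (2.51) and limma with a pseudocount of 0.5 called it as higher.

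Kdm3a, Kdm4a and Kdm4c act on methylated lysine 9 of histone H3, Kdm3a on mono- and dimethylation and the Kdm4 proteins on trimethylation and also on lysine 36. Kdm4c (ENSMUSG00000028397.13, chr4:74242497-74405860, plus strand) had 3 UMIs in all oocytes, 3 in all zygotes and 0 in E2C cells. The L2C embryos had 5.56, 10.9, 4.54, 9.85, 5.09 and 7.04 copies. Their pooled level was 7.17 copies (95% exact interval 5.19 to 9.66), 20.3 times the same E2C floor of 3 UMIs. This ratio also leaves out the counting error of L2C. The fitted rise was 2.99 (SE 0.36, limma adjusted p = 2.34e-10). It stayed at 7.53 ± 4.32 copies in 4-cell embryos (n = 5; 10.1, 12.5, 1.58, 4.88 and 8.59). It was at 4.54, 6.98, 0 and 2.25 in the 8-cell and at 1.57, 0.59, 1.10 and 2.49 in the 16-cell embryos, so neighbouring stages overlapped. At 4-cell to 8-cell it was called without 8-cell embryo 2 (log2 fold change -1.10), and at 8-cell to 16-cell without 8-cell embryo 3 (-1.17) or 4 (-1.12). All 16-cell embryos remained above all oocytes (log2 fold change 1.05, SE 0.29, limma adjusted p = 0.00123; not called without 16-cell embryo 1, at 1.03, with summed UMIs, at 0.99, or with a pseudocount of 5, at 0.32). This rests on 12 UMIs in 16-cell embryos and 3 in oocytes, a ratio of pooled levels of 6.85 (95% exact interval 1.85 to 37.8). In 16-cell embryo 3, of lower depth, a single UMI was worth 1.10 copies.

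Kdm3a (ENSMUSG00000053470.13, chr6:71588972-71632990, minus strand) was at 0.596 ± 0.636 copies in oocytes (n = 10), 0.658 ± 0.389 in zygotes (n = 9) and 0.512 ± 0.511 in E2C embryos (n = 5), with no embryo of these stages above 1.39. The L2C embryos had 5.56, 8.19, 6.91, 10.3, 4.86 and 3.22 copies, all above every earlier embryo. The rise was 2.34 (SE 0.41, limma adjusted p = 2.15e-06). It was then 3.57 ± 1.51 in 4-cell (n = 5), 2.64 ± 1.02 in 8-cell (n = 4) and 1.74 ± 1.57 in 16-cell embryos (n = 4). The difference from oocyte to 16-cell was 0.94 and not called by limma, but edgeR (2.12) and DESeq2 (1.71) called it, as did limma with summed UMIs (1.04), with a pseudocount of 0.5 (1.30) or without oocyte 2 (1.03) or 16-cell embryo 3 (1.04) or 4 (1.17). Among mESC, 4 of 5 cells had a Kdm3a UMI (median 5.46 copies), while Kdm2b, Kdm4a, Kdm4c, Kdm5b and Kdm6b had none in those cells, where a count of 0 allows a level of up to 2.90 copies.

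Kdm4a (ENSMUSG00000033326.15, chr4:118136957-118180043, minus strand) was the member without a call at any comparison. It was at 0.316 ± 0.512 copies in oocytes (n = 10), 0.775 ± 0.689 in zygotes (n = 9) and 0.498 ± 0.843 in E2C embryos (n = 5), and 3 of 6 L2C embryos had none. The highest L2C value, 5.56 copies in embryo 1, is 1 UMI. In all 161 cells 45 UMIs were counted, and no isoform of the gene was in the isoform table.

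Kdm6b (ENSMUSG00000018476.7, chr11:69398508-69413675, minus strand), a demethylase of lysine 27 of histone H3, the mark set by Polycomb, was also found in every oocyte. Oocytes had 5.39 ± 2.11 copies (n = 10; lowest 2.78, median 5.62, highest 8.78) and zygotes 4.77 ± 1.59 (n = 9; lowest 2.06, median 5.27, highest 6.35). The E2C embryos had 2.50, 1.95, 4.62, 4.13 and 2.17 copies, and the L2C embryos had 0, 0, 0, 1.66, 0.78 and 0, all below every E2C embryo. The fall was 1.67 (SE 0.42, limma adjusted p = 5.59e-04), from 28 UMIs to 3, a ratio of 6.60 with a 95% exact interval of 2.04 to 33.9, and the call was lost with a pseudocount of 5 (log2 fold change -0.61). Low levels remained later, at 1.66 ± 1.22 in the 16-cell embryos (n = 4). The 4 oocyte markers summed to a median of 112 copies (0 to 274) in 16-cell cells and of 71.0 in L2C cells. In 16-cell cells Bmp15 and Zp3 had medians of 0 copies. How these marker levels bear on the later Kdm6b levels was not tested. Kdm6b in 16-cell embryos was below oocytes by 1.11 (SE 0.34, limma adjusted p = 0.00319; not called without 16-cell embryo 4, at -0.83, or with a pseudocount of 5, at -0.55). The antisense gene Kdm6bos had 1 UMI in all cells.

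The cells without an embryo name are given by medians over cells, which are not set against the embryo means above. The median over 32-cell blastomeres was 5.78 copies for Kdm1a (range 0 to 16.4), 6.69 for Kdm2b (0 to 15.4), 5.81 for Kdm5b (0 to 22.0), 3.98 for Kdm3a (0 to 13.2), 1.80 for Kdm6b (0 to 7.55) and 1.06 for Kdm5a (0 to 8.78). In blastocyst cells it was 3.77 for Kdm1a, 5.66 for Kdm2b (0 to 25.5) and 3.95 for Kdm5b (0 to 12.7), and the medians of the other 6 genes were 0. Kdm1b, at 6 UMIs in 13 blastocyst cells, stood beside oocyte markers that summed to between 73.5 and 220 copies in the same cells. Of these markers, Bmp15 and Zp3 had medians of 0 copies there. The part of RNA from other cells in the Kdm1b UMIs was not tested.

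The promoters of 7 of the 9 genes were found in the RefSeq table for GRCm38.p6, which has no entry for Kdm5a and Kdm6b. The 200 bases before the start site are shown for Kdm5b, Kdm3a and Kdm4c, which rose at E2C to L2C. They are also shown for both amine oxidase genes, which fell. Kdm2b fell too but is not shown, so the windows do not compare all rising with all falling genes. Capitals mark, on either strand, the CCAAT box, the GC box (letters GGGCGG), the TATA box (letters TATAAA) and the nuclear receptor half-site (letters AGGTCA), which do not overlap here. For Kdm4c, with 2 start sites in the table, the one nearer to the start of the sequenced isoform PB.51887.3 is shown, and the other window holds 1 AGGTCA. For Kdm3a, with 3 start sites, the one nearest to the annotated start of the gene is shown. The motif counts of Kdm3a depend on this choice, since the other windows hold 3 and 0 GC boxes and no CCAAT.
Kdm5b, chr1:134559978-134560177, plus strand: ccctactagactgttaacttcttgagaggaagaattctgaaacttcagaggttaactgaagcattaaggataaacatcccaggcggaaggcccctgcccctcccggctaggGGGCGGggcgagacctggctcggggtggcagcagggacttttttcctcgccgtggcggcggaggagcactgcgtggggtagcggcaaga
Kdm3a, chr6:71632918-71633117, minus strand: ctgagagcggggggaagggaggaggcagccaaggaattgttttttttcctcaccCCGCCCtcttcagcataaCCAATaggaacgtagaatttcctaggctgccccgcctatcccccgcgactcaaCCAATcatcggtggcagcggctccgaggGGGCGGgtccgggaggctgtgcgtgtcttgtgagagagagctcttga
Kdm4c, chr4:74251679-74251878, plus strand: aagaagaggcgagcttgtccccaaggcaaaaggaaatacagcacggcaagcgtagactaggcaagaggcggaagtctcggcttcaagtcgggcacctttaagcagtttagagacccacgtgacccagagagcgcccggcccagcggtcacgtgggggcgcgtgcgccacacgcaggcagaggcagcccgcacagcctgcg
Kdm1a, chr4:136602724-136602923, minus strand: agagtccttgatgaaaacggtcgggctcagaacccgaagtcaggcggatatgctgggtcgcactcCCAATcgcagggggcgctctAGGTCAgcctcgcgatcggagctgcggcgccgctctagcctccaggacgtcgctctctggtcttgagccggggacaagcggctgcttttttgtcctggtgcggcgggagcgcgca
Kdm1b, chr13:47043299-47043498, plus strand: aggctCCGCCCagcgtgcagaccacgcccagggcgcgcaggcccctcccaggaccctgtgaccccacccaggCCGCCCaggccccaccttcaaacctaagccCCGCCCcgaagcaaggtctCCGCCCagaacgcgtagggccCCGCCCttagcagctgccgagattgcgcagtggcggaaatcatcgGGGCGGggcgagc
The GC box GGGCGG occurred 6 times in the Kdm1b window, 2 times in Kdm3a and 1 time in Kdm5b, and it is in 31.0% of the 32851 promoter windows of the same length. CCAAT occurred 2 times in Kdm3a and 1 time in Kdm1a (29.3% of all windows), AGGTCA 1 time in Kdm1a (11.4%), and TATAAA in none of the 5 (9.96%). The Kdm4c window held none of the 4 motifs. GC content was 72% in the Kdm1b window and between 59% and 64.5% in the other 4, against a median of 53% over all windows. The Kdm2b windows, not shown, held 5, 4, 0 and 0 GC boxes, with a GC content of 64.5% to 79.5%.

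The isoform table shows which parts of these long genes the reads covered. Isoforms had been classed by the authors against the annotation as full splice match (FSM, all junctions of a known transcript), incomplete splice match (ISM, a part of them) or as holding a combination or site not in it. Of the 68 isoforms of the members, 63 (92.6%) were ISM, 3 were FSM and 2 of the last class, where 48.0% of all isoforms in the table were ISM. The 3′ end lay within 200 bases of an annotated transcript end (GENCODE vM21) in 57 of 68 and the 5′ end within 200 bases of an annotated start in 14. Isoforms of a gene mostly shared the 3′ end and differed in how far 5′ they reached. Isoform UMIs were 75.1% of the gene's UMIs for Kdm1a, 39.8% for Kdm5b, 39.3% for Kdm3a, 26.7% for Kdm2b, 20.6% for Kdm1b, 14.2% for Kdm4c, 5.93% for Kdm5a and 1.60% for Kdm6b, where over all genes they were 69.4%. The isoform table therefore describes a minority of the molecules of most members.

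Kdm1a had 18 isoforms of 738 to 2833 bases with 2 to 19 exons, all with the 3′ end within 13 bases of the annotated end of the gene. The highest mean levels were those of PB.54295.1 (5 exons, 55 UMIs) and PB.54295.7 (2 exons, FSM, 68 UMIs). Kdm1b had 8, all ISM, which ended 665 to 680 bases before the annotated end of the gene, led by PB.20064.37 (3 exons, 53 UMIs) and PB.20064.43 (2 exons, 49 UMIs). At E2C to L2C PB.20064.37 fell by 1.32 (SE 0.46, limma adjusted p = 0.0198). From oocyte to 16-cell both of these isoforms fell, by 1.05 (limma adjusted p = 0.00713) and 1.08 (adjusted p = 0.00331). Neither was called there with a pseudocount of 5, with summed UMIs or with the filter of 5 copies. Without 16-cell embryo 1 or 2 only 1 was called. Kdm3a had 8 isoforms, all ISM, led by PB.62591.16 (2 exons, 16 UMIs) and PB.62591.10 (4 exons, 8 UMIs), but none passed the filter on low values, so they were not tested.

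Of the 29409 isoforms that passed the filter on low values, 30 were of the members. They were called at oocyte to zygote (1 of 30, background 1.48%), zygote to E2C (3 of 30, background 5.18%), E2C to L2C (10 of 30, background 26%) and L2C to 4-cell (3 of 30, background 4.29%), and from oocyte to 16-cell (2 of 30, background 31.2%). None was called at 4-cell to 8-cell (background 7.93%) or 8-cell to 16-cell (background 1.97%) by limma, where 2 and 1 of 30 had an unadjusted p under 0.05. Of the 10 at E2C to L2C, 5 were of Kdm5b and rose, and 4 of Kdm2b and 1 of Kdm1b fell. These Kdm5b isoforms had a UMI in at most 2 of the 24 oocytes, zygotes and embryos up to E2C. They passed the filter through later embryos, so only a rise could be called for them. The Kdm1b isoform, PB.20064.37, had a UMI in 1 of 19 later embryos, so only a fall could be called for it. With a pseudocount of 5 nearly all member calls were lost, and 2197 of all 29409 isoforms were called at E2C to L2C. Leaving out 1 embryo gave 7 to 10 member calls at E2C to L2C and 1 to 4 at L2C to 4-cell.

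The 13 Kdm2b isoforms ended at the annotated gene end within 16 bases (11 isoforms, 386 UMIs) or 532 to 539 bases before it (2 isoforms, 12 UMIs). The leading isoform PB.59207.4 (5 exons, 2459 bases) rose by 1.56 from zygote to E2C (SE 0.36, limma adjusted p = 0.00251) and fell by 2.87 at E2C to L2C (SE 0.48). The second, PB.59207.11 (2 exons, 1441 bases), rose by 1.20 already at oocyte to zygote (SE 0.22, limma adjusted p = 1.79e-04). That call was lost with a pseudocount of 5 and with summed UMIs. The 2 longest, PB.59207.10 (13 exons, 3677 bases, chr5:122870679-122922180, known junctions in another combination) and PB.59207.24 (12 exons, 3577 bases, chr5:122870681-122921649), start 73 and 101 bases from annotated start sites inside the gene. They held 0 of the 279 Kdm2b isoform UMIs of oocytes, zygotes and E2C embryos (95% exact interval 0% to 1.31%). From L2C to 16-cell they held 21 of 93 (22.6%, 95% exact interval 14.6% to 32.4%). No oocyte, zygote or E2C embryo of 24 had a UMI of either, against 3 of 6 L2C, 3 of 5 4-cell, 2 of 4 8-cell and 2 of 4 16-cell embryos. In run 4, however, which holds intact and divided oocytes and whose counts are not normalized with the others, these isoforms had 35 and 38 UMIs over 16 libraries. In that run nested isoforms of 1 gene had similar counts (138 to 211 UMIs for each of the 8 Kdm1b isoforms, against 8 to 52 in oocytes to E2C of the other runs), and whether a UMI was counted for more than 1 nested isoform was not tested. The pattern was chosen after the values were seen and rests on runs 1 to 3.

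**Figure D4:**
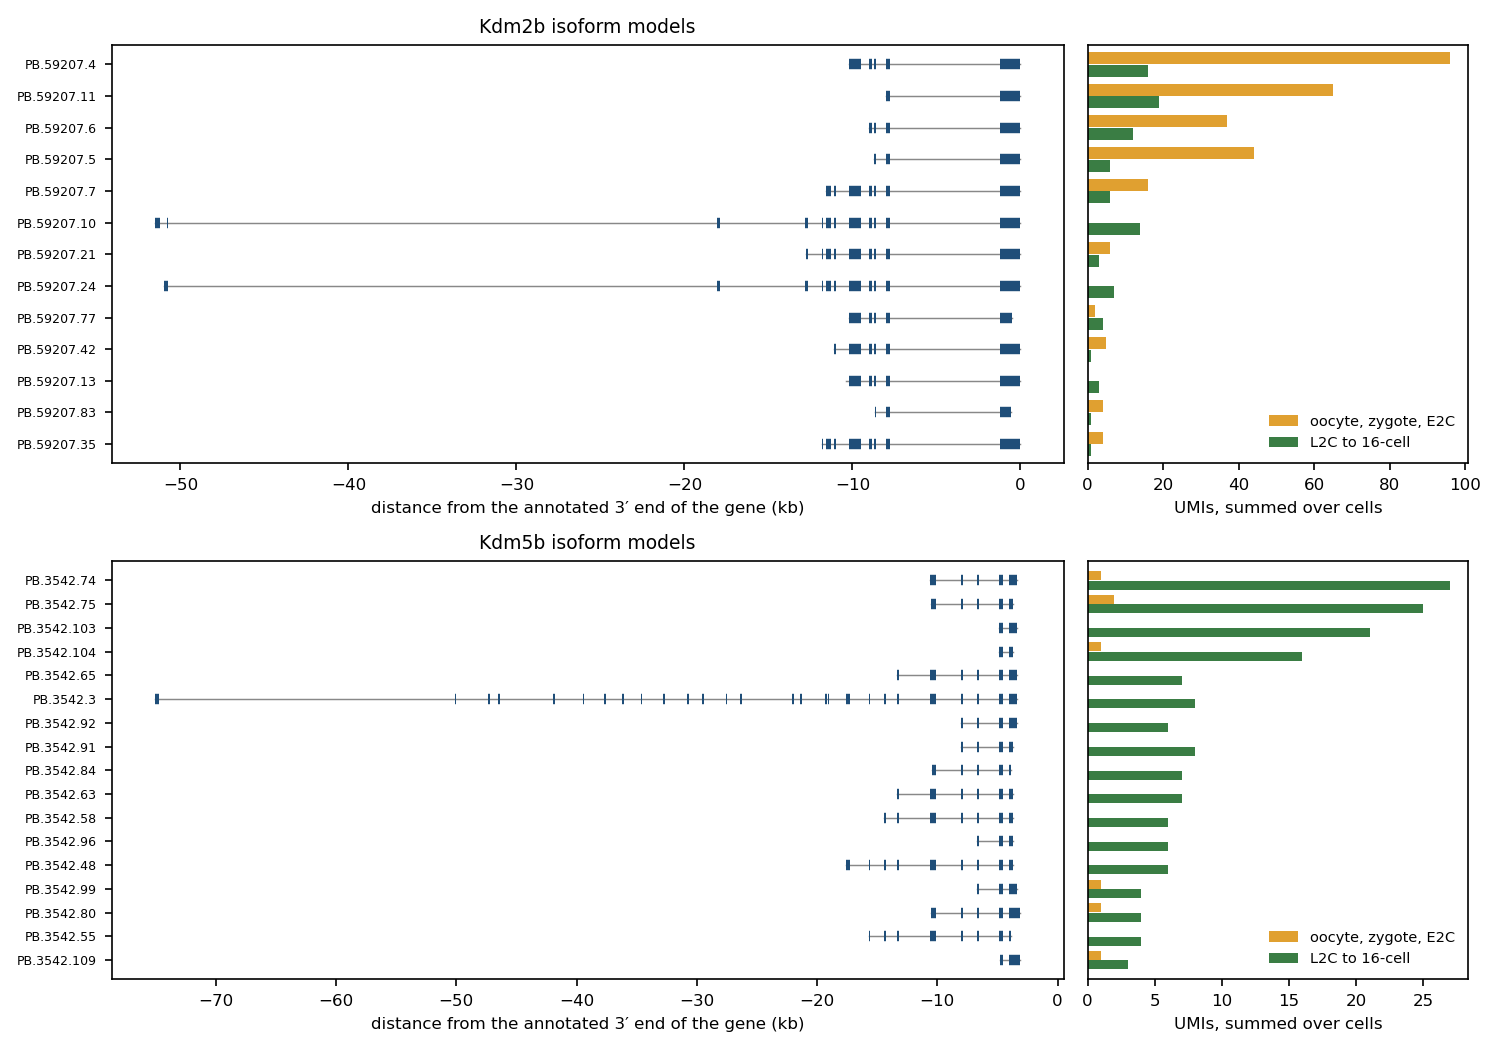
Isoform models of Kdm2b and Kdm5b (rows, ordered by total UMIs; boxes are exons) against the distance from the annotated 3′ end of the gene in kb (left), and UMIs summed over cells of oocytes, zygotes and E2C or of L2C to 16-cell embryos (right, from 0). PB.59207.10 and PB.59207.24 have 14 and 7 UMIs, all from L2C on, and PB.3542.3 is the 1 Kdm5b isoform that starts within 52 bases of the annotated start of the gene.

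Kdm5b had 17 isoforms of 687 to 5324 bases, and all ended 3094 to 3848 bases before the annotated end of the gene. Most UMIs fell to a pair of end groups, 3680 to 3745 bases (7 isoforms, 86 UMIs) and 3337 to 3338 bases before the gene end (6 isoforms, 89 UMIs). In L2C cells they held 45 and 36 UMIs and in 16-cell cells 6 and 11, a split that was not tested. The leading isoforms PB.3542.75 and PB.3542.74 (both 5 exons) end in one group each, and at E2C to L2C they rose by 1.94 (SE 0.38, limma adjusted p = 4.03e-05) and 1.74 (SE 0.37, adjusted p = 1.56e-04). PB.3542.103, PB.3542.104 and PB.3542.84 rose by 1.58, 1.19 and 1.01. PB.3542.103 and PB.3542.84 had 0 UMIs up to E2C, so they passed the filter on low values only through later embryos. At L2C to 4-cell PB.3542.103 fell by 1.34 (SE 0.33, adjusted p = 0.0116), PB.3542.74 by 1.25 and PB.3542.104 by 1.10, the latter with adjusted p of 0.0743 and 0.0528. PB.3542.3, an FSM of 27 exons and 5324 bases, starts 16 bases from an annotated start site. It had 6 UMIs in 4-cell and 2 in 8-cell cells, and 0 in 16-cell cells and in all stages up to L2C.

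The few isoforms of Kdm4c and Kdm5a that passed the authors' filter cover only an end of the gene. PB.51887.3 of Kdm4c (6 exons, 1103 bases, with junctions outside the annotation) starts 80 bases from an annotated start site and stops 105128 bases before the gene end. Its 9 UMIs were in 8 cells, all from L2C on, and the 3′ isoform PB.51887.53 (4 exons) had 1 UMI before and 8 from L2C to 16-cell. For Kdm5a, PB.63953.2 (4 exons, 1221 bases) starts 19 bases before the annotated start site and stops 69412 bases before the gene end, with 7 UMIs, all in L2C and 4-cell cells. For Kdm6b, PB.11919.16 (4 exons) had 5 UMIs, all in oocytes and zygotes.

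Isoform shares within a gene were compared with limma after an arcsine square root transform, over embryos with at least 5 UMIs in the gene's listed isoforms. Only Kdm1a and Kdm1b could be tested at oocyte to zygote, and these with Kdm2b at zygote to E2C. No isoform of them passed the limits (gene q under 0.01 and isoform q under 0.05) at either step (background 0% of 2807 genes and 0.422% of 2133 genes). At an unadjusted p under 0.05 there was 1 isoform, PB.20064.30 of Kdm1b, with a mean share of 12.8% in oocytes and 4.48% in zygotes. At later steps no member had 2 isoforms that were each found in at least 3 embryos of both stages and met this minimum (background 9.43% at E2C to L2C and 0% at the 3 steps after it), so that the loss and gain of the Kdm2b isoforms at E2C to L2C were not tested as shares.

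The genes with related functions were described from lists of their own. Of 13 other histone lysine demethylase genes tested of 17 listed, 2 were higher and 4 lower at E2C to L2C (background 48.4%). Riox2, a JmjC protein of the nucleolus, rose the most (0.45 ± 0.452 to 18.3 ± 8.17 copies, log2 fold change 3.73, limma adjusted p = 2.43e-12). Kdm6a, the X-linked relative of Kdm6b, fell the most (29.6 ± 3.20 to 7.02 ± 5.18 copies, log2 fold change -2.36, adjusted p = 8.71e-08). At 4-cell to 8-cell 2 of the 13 were lower and none higher (background 15%, 10.5% lower). Riox1 fell from 12.8 ± 5.45 to 2.58 ± 1.54 copies (log2 fold change -2.03, limma adjusted p = 5.82e-05).

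Of 19 histone lysine methyltransferase genes tested, the enzymes that set these marks, 4 were higher and 5 lower at E2C to L2C (background 48.4%, 25.6% higher and 22.8% lower). Suv39h1, which trimethylates lysine 9 of histone H3, rose from 0.218 ± 0.487 to 7.02 ± 3.80 copies (log2 fold change 2.61, limma adjusted p = 9.16e-10). Ezh2, the enzyme of Polycomb complex 2, fell from 51.7 ± 17.1 to 8.55 ± 4.63 copies (log2 fold change -2.37, adjusted p = 5.13e-09). At 4-cell to 8-cell 3 were lower and none higher (background 15%, 10.5% lower), with the largest fall in Ezh1, from 4.09 ± 1.41 to 0.665 ± 0.635 copies (adjusted p = 0.00668). Of 13 tested partners of the amine oxidases and enzymes that make or use 2-oxoglutarate, 6 were higher and 3 lower at E2C to L2C (the same background of 48.4%). Hdac1 rose from 1.44 ± 1.23 to 18.9 ± 5.54 copies (log2 fold change 3.05, adjusted p = 1.28e-09). Hdac2, its paralog in the same complex with Kdm1a, fell from 7.21 ± 2.17 to 1.71 ± 1.63 (log2 fold change -1.50, adjusted p = 0.00179). At 4-cell to 8-cell 1 of the 13 was called (background 15%, 4.47% higher). Idh1, a cytosolic source of 2-oxoglutarate, rose from 0.389 ± 0.588 to 6.53 ± 3.66 copies (log2 fold change 2.37, adjusted p = 6.22e-05).

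Patterns were compared by Pearson's r of log2(value + 1) over the 43 oocytes, zygotes and embryos, which share stages and depth, so that r is a description. Among the members, Kdm4c and Kdm5b (r = 0.91), Kdm3a and Kdm5a (0.88) and Kdm5a and Kdm5b (0.88) were the most alike, and Kdm4c and Kdm6b (-0.78) the least. Of the 11682 genes, those most like Kdm5b were Znhit3 (0.95) and Nop9 (0.95), like Kdm5a Riox1 (0.94) and Tnfrsf12a (0.94), like Kdm4c Smim40 (0.95) and Btbd18 (0.92), and like Kdm3a Pank3 (0.88) and Kdm5a (0.88). Those most like Kdm1b were Nexn (0.94) and Ranbp9 (0.94), and like Kdm6b 2610001J05Rik (0.87) and Mkln1 (0.84). Kdm2b had Birc5 (0.83) and Rbpms2 (0.81), Kdm1a had Bmp2k (0.75) and Nceh1 (0.69), and Kdm4a had no gene above 0.60 (Mir22hg, then Mxra8 at 0.57).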

How the data were processed

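The authors called consensus reads in SMRT-Link, read cell barcodes and UMIs using scISA-Tools, aligned to mm10 by minimap2, collapsed isoforms with cDNA_Cupcake and filtered them with SQANTI3. Isoforms seen in fewer than 5 cells are not in the table. The authors deposited gene and isoform values of the CPM kind, as copies per 100,000 UMIs of a cell, for 161 cells, and UMI counts of 49271 isoforms for 16 libraries of run 4. Among the normalized values, 100% of non-zero values were whole multiples of 1 UMI within a tolerance of 0.1, and these UMIs served for depth and the count tests.

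The 9 genes, the lists and the limits were chosen with earlier results of these data known. The GEO samples are 4 runs in 1 group, so the oocyte, zygote or embryo in a cell's name was the replicate. The names do not say whether runs reused embryo numbers. Nothing in the labels says which embryos shared a mother. In the main limma fit the p-values use a spread between embryos that was pooled over the 7 stages and moderated over all features. That spread includes the counting error of shallow embryos. The run of oocytes and zygotes was inferred from the barcode suffix in the study's list of chimeric transcripts, and no label gives it. Genes at 1 copy or more in at least 4 embryos were fitted over 7 stages with limma 3.58.1 (trend, array weights, pseudocount 1) in R 4.3.3, with Benjamini-Hochberg adjustment over all features. Calls of genes and isoforms needed an absolute log2 fold change above 1 and p below 0.01. Isoform shares were tested per pair of stages without array weights, on isoforms found in at least 3 embryos of both stages, with gene p-values combined by Simes' method. Alternatives used edgeR 4.0.16 and DESeq2 1.42.0 on recovered UMIs. Tested on simulated data for E2C to L2C, limma recovered 75.5% of 200 genes changed 4-fold among 11682 genes, and called 0.784% of the unchanged genes. The simulation drew each embryo as 1 library of its summed depth, and no changed gene started from 0. Far fewer genes changed in it than were called at this step in the data. Its rates therefore do not carry over to genes at or near 0 in E2C. Named are all 9 genes, their 2 leading isoforms, of each list the called genes with the largest rise and fall at E2C to L2C and 4-cell to 8-cell, and the 2 genes most like each member. Called isoforms, PB.59207.10, PB.59207.24 and PB.3542.3, the end groups and the motifs were chosen after values were seen. Levels, intervals and likeness used Python 3.11.15 with pandas 2.3.3 and scipy 1.17.1 and drawn with matplotlib 3.10.9.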

Additional observations from a re-analysis of the deposited data

Results flagged for a closer look

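Of 61 groups of embryos with a range above 0, 8 held 1 embryo far from the others of its stage by Dixon's gap over range. Chance gives about 1 in 20 for normally distributed values, a rate that does not hold for these sparse counts. A single embryo with a UMI among embryos at 0 is always flagged, so the 8 groups cannot be set against that rate. Kdm2b was at 23.3 copies per 100,000 UMIs in oocyte 6 (56 UMIs), against 1.02 to 6.25 in the other oocytes. This oocyte also had the highest Kdm1b level of the oocytes (30.4 copies), and by the inferred run it is the only oocyte of run 2. Kdm2b was at 47.5 copies in 4-cell embryo 2 (7 UMIs), against 4.82 to 8.35 in the others, and this embryo has 2 cells, the shallower with 4985 UMIs. Kdm1b was at 16.7 copies in L2C embryo 1 (3 UMIs, others 0.99 to 5.17) and at 1.02 in 16-cell embryo 1 (4 UMIs, others at most 0.147). The other outlying values rest on 1 to 3 UMIs. They are Kdm4a at 1.95 copies in E2C embryo 2, at 0.369 in 8-cell embryo 2 and at 0.494 in 16-cell embryo 2, and Kdm6b at 5.09 in 4-cell embryo 3.

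Run 4 was not used in the comparisons. Its 4 intact oocytes held 435 Kdm1b, 136 Kdm1a, 103 Kdm2b, 34 Kdm6b and 6 Kdm3a UMIs summed over isoforms, above the 3 counts that a count of 0 allows. Kdm1b was at 47.9 ± 6.65 copies per 100,000 UMIs there (SD, n = 4) and at 4.98 ± 2.67 over the same isoforms in the 10 oocytes of runs 1 to 3, and Kdm2b was at 12.02 ± 4.90 and 2.10 ± 2.83. Kdm1a was at 14.4 ± 5.66 in run 4 and 8.55 ± 2.37 in the others, Kdm3a at 0.651 ± 0.775 and 0.533 ± 0.604, and Kdm6b, with 1 isoform, at 3.78 ± 1.40 and 0.231 ± 0.373. Nested isoforms of 1 gene had similar counts in run 4, so a sum over several isoforms may count a molecule more than once. Whether this occurred, or whether UMIs were assigned to isoforms as in runs 1 to 3, was not tested. The difference between runs was not tested.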

How the results depend on the processing

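The 15 called fold changes of the 9 genes kept their direction in all of 343 alternative values, and 13 of these missed the limits of a call. The counts of called members at oocyte to zygote (1), zygote to E2C (1) and E2C to L2C (8, and 6 to 8 in the other settings) stayed within 1.5 times, also with the run as a replicate block (1 at oocyte to zygote). Leaving out 1 embryo gave 1 and 1 at the first steps, 7 to 8 at E2C to L2C, 0 to 1 at each later step and 4 to 6 from oocyte to 16-cell. From L2C on other counts appeared. At L2C to 4-cell 1 member (Kdm5b) was called with summed UMIs, edgeR, the filter of 5 copies or without L2C embryo 1 and 4-cell embryo 2 together, and 2 (Kdm1a, Kdm1b) without array weights. Without array weights 1 was called at 4-cell to 8-cell (Kdm4c) and 1 at 8-cell to 16-cell (Kdm5a, also 1 with no filter). From oocyte to 16-cell a pseudocount of 5 left 1 of the 5 (Kdm1b). Calls of isoforms depended on the scale. With a pseudocount of 5 they numbered 0, 0, 1, 0 and 0 at oocyte to zygote, zygote to E2C, E2C to L2C, L2C to 4-cell and oocyte to 16-cell. With a pseudocount of 0.5 there were 3 at oocyte to zygote, 6 at L2C to 4-cell and 1 at 4-cell to 8-cell. With summed UMIs there were 0, 1 and 0 at oocyte to zygote, zygote to E2C and oocyte to 16-cell, and with the filter of 5 copies 1, 1, 0 and 0 at zygote to E2C, E2C to L2C, L2C to 4-cell and oocyte to 16-cell. Adjusted p under 0.05 left 1 at L2C to 4-cell, and 1 appeared at 4-cell to 8-cell without array weights or without a filter. Leaving out 1 embryo gave 3 to 4, 7 to 10, 1 to 4, 0 to 1, 0 and 1 to 2 isoforms at the steps from zygote to E2C on. No isoform share was called in any setting. The causes were not tested. edgeR and DESeq2 gave no isoform values, since no member isoform passed their filter. Leaving out L2C, oocyte or zygote embryos, leaving out 2 embryos together and the fit of oocytes and zygotes alone were chosen after seeing the data. Depth limits Kdm4a and every member at 0 in E2C.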
